A study of Homo sapiens with 2 samples.

Results

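The genes of the hypoxia-inducible factor pathway examined here were 6 regulators, HIF1A, EPAS1, ARNT, EGLN1, EGLN3 and VHL, and 4 targets, CA9, CA12, BNIP3 and ADM, which were listed by symbol and found in both libraries among 23368 gene symbols. The libraries are replicates 1 and 2 of a single group, cells of the triple-negative breast cancer line SUM159 with the genotype given as Wt, grown as an attached layer and selected for doxorubicin resistance by long treatment with rising doses. According to the methods, the exposure was not continuous, since cells then recovered in medium without the drug. Polyadenylated RNA was sequenced in bulk and the authors counted reads per gene, with totals of 23044084 counts in replicate 1 and 17985508 in replicate 2. No oxygen level, hypoxic treatment or clonal origin of the resistant cells is named in the labels or methods, and nothing states that the replicates came from separate cultures. No naïve libraries were analysed here, so levels in resistant cells are given and no change upon resistance was measured.

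In this pathway, HIF1A and EPAS1 encode the alpha subunits of the hypoxia-inducible factors, and ARNT encodes the beta subunit with which either of them binds DNA. In the presence of oxygen, the prolyl hydroxylases encoded by EGLN1 and EGLN3 modify the alpha subunits, which the VHL protein then marks for degradation. The control of the alpha subunits is therefore mainly at the level of protein, whereas CA9, CA12, BNIP3 and ADM, and also EGLN3 and EGLN1 themselves, are known to be transcribed more when the factors are stable.

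The transcripts of the alpha subunits were the most abundant of the pathway, and the oxygen-labile partners were present far above the level of their common partner ARNT. All 10 genes passed the minimum mean count of 20 that the study's methods set for bulk RNA-seq, as did 52.8% of all symbols in the files. Their mean counts ran from 88.0 for CA9 to 22343 for HIF1A. Levels are given as counts per 1000000 counts of the library (CPM) and, where genes are compared with each other, as CPM per kb of exonic length, with the exons of all annotated transcripts merged. In bulk RNA, a transcript at a lower level in every cell and one confined to fewer cells cannot be told apart.

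The labelled cell type was checked first. The mesenchymal gene VIM stood at 8159 and 6925 CPM, the keratin gene KRT8 at 308 and 223 CPM and the keratin gene KRT18 at 409 and 282 CPM, in replicates 1 and 2. EPCAM and CDH1, of epithelial cells, had at most 13 counts, the estrogen receptor gene ESR1 had 11 and 9 counts the progesterone receptor gene PGR had 2 and 0, and ERBB2, the HER-family receptor gene whose amplification is absent in this tumor class, had 2191 and 1877. Of 5 endothelial markers, PECAM1 had 24 and 20 counts, CDH5 had 1 and 0, and VWF, TEK and KDR were at 0. Among 4 leukocyte markers, CD68 had 30.6 and 19.8 CPM, CD14 had 15.4 and 7.62 CPM and PTPRC had 48 and 31 counts, CD3E was at 0, and these genes summed to 48.1 and 29.2 CPM. Where a gene was at 0, its level could by counting error alone have been as high as 3 counts, which is 0.130 CPM at the depth of replicate 1 and 0.167 CPM at that of replicate 2.

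HIF1A spans bases 62162231 to 62214977 of chromosome 14 (GRCh37, as for all gene positions here) and drew 23523 counts from replicate 1 and 21162 from replicate 2, or 1021 and 1177 CPM. This was 1099 ± 110 CPM (SD, n = 2). Per kb of exon the level was 198 and 228 CPM, and 99.0% of the 11834 genes with a known length and a mean count of at least 20 lay lower. HIF1A alone made up 52.3% and 54.2% of the summed level per kb of the 10 genes. The antisense genes HIF1A-AS1 and HIF1A-AS3 cover 2.58% and 5.80% of its exonic length and are not symbols of the files, and HIF1A-AS2, which is one, had no counts.

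EPAS1, which encodes the second alpha subunit and is best known from endothelium, was also abundant in these cells. Its gene spans bases 46520806 to 46613836 of chromosome 2, and its counts were 8931 and 8836, or 388 and 491 CPM, with a mean of 439 ± 73.3 CPM (SD, n = 2). Both libraries held EPAS1 while 3 of the 5 endothelial markers were at 0, and PECAM1, the highest of them, had 1.04 and 1.11 CPM. Per kb, HIF1A was 3.73 times as high as EPAS1 in replicate 1 and 3.39 times in replicate 2. The ratio held at 3.28 ± 0.221 (SD, n = 2) with the length of the canonical transcript in place of the merged exons. HIF3A, the third gene of the alpha subunit family, had 0 and 1 counts.

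ARNT spans bases 150782189 to 150849184 of chromosome 1, and its counts were 1148 and 1234, or 49.8 and 68.6 CPM. The beta subunit gene was the lowest but one of the regulators. Summed per kb, HIF1A and EPAS1 stood 32.5 times above ARNT in replicate 1 and 27.8 times in replicate 2. A second beta subunit gene, ARNT2, had 48.1 and 64.2 CPM, and per kb it was 0.805 and 0.779 times ARNT. With both beta subunits counted, the alpha subunit transcripts were still 18.0 and 15.6 times as abundant. These are ratios of transcripts, and the libraries hold no measure of protein.

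Of the 3 genes listed here whose products hydroxylate the alpha subunits or mark them for degradation, VHL was the highest. VHL, the substrate receptor of the ubiquitin ligase that takes up hydroxylated alpha subunits, spans bases 10183462 to 10195351 of chromosome 3, and its counts were 3777 and 2500, or 164 and 139 CPM. Its relative VHLL had no counts. EGLN1, which encodes the main oxygen-sensing prolyl hydroxylase, spans bases 231499497 to 231558033 of chromosome 1 and had 79.9 and 95.2 CPM. Per kb, VHL stood above EGLN1 in both libraries, by 2.21 times in replicate 1 and 1.57 times in replicate 2. An unnamed long noncoding gene on the opposite strand covers 23.5% of the exonic length of VHL, and although the libraries were made with a directional kit, which keeps the strand of the RNA, the strand setting of the counting was not given in the sources used here, so it is not known how reads in that overlap were assigned. For EGLN1, 55.8% of the exonic length is shared with a gene model on the same strand that is not a symbol of the files.

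EGLN3, the hydroxylase gene that is itself a strong target of the factors, was the lowest of the regulators, with 423 and 290 counts, or 18.4 and 16.1 CPM. Its level was 17.2 ± 1.58 CPM (SD, n = 2). Per kb, EGLN1 was 5.96 times as high in replicate 1 and 8.08 times in replicate 2. The size of this gap depends on the gene model. In the annotation, EGLN3 spans chromosome 14 from 34393433 to 34931980 with 7363 bp of merged exons, whereas its canonical transcript ends at 34420280 and is 2706 bp long. With canonical lengths, EGLN1 was 2.72 and 3.69 times as high as EGLN3, so that the order was the same and the ratio smaller. The remaining gene of the EGLN family, EGLN2, had 0 and 2 counts. However, 2012 bases of its exons are shared with the readthrough gene RAB4B-EGLN2, which had no counts either. Reads that fall in both genes are commonly left out.

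**Figure D1:**
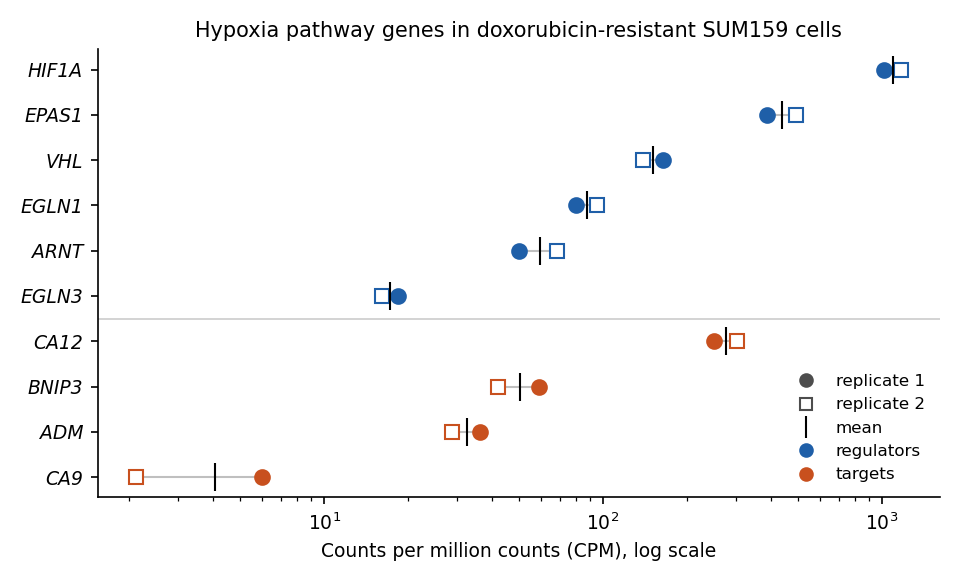
CPM, on a log axis, of the 6 regulators (blue) and 4 targets (orange) in the doxorubicin-resistant cells. Circles are replicate 1, open squares replicate 2 and vertical bars their mean. HIF1A lies highest at 1021 and 1177 CPM, and the libraries lie farthest apart for CA9 at 5.99 and 2.11 CPM.

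The factors bind DNA at short core sequences, ACGTG or GCGTG on either strand, and the promoters of the 4 targets are shown to place these cores. Promoter windows of RefSeq genes on GRCh38.p14, from 250 bases before to 50 bases after the start of the gene, were found for 9 of the 10 genes in 10 windows, HIF1A having 2. VHL had none. Stretches of 60 bases upstream of the start are printed for the targets and for EGLN1, the only regulator whose window held ACGTG. All are given 5′ to 3′ on the strand of the gene, with the cores in capitals, where CACGT and CACGC are the same cores read on the opposite strand. They lie at chr9:35673868-35673927 on the plus strand for CA9, chr15:63382037-63382096 on the minus strand for CA12, chr10:131982015-131982074 on the minus strand for BNIP3, chr11:10304944-10305003 on the plus strand for ADM and chr1:231422288-231422347 on the minus strand for EGLN1.
CA9: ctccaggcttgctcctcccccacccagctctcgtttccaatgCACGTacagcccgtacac
CA12: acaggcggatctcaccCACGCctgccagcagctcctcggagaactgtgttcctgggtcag
BNIP3: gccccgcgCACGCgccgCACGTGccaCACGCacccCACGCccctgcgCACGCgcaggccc
ADM: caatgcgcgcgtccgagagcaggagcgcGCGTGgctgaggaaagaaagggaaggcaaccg
EGLN1: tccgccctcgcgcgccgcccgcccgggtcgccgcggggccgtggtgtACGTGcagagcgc

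Each of the 4 target windows held at least 1 core, and so did 3 of the 6 regulator windows, whereas 48.4% of all 35116 promoter windows in the table held one. In BNIP3 there were 6 matches, 2 of which overlap in the palindrome CACGTG, all within the stretch printed above. The core of CA9 began 18 bases before the start of the gene and that of EGLN1 began 13 bases before it. CA12 had a second match after the start. HIF1A and EPAS1 each held a single GCGTG, and the windows of ARNT and EGLN3 held neither. Of 45 windows of other HIF target genes, 39 held a core. Such a match is a description of letters and not a measured binding site.

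Among the targets, CA12 was the most abundant and CA9 the least, although both encode membrane carbonic anhydrases with an extracellular active site that acidify the surroundings of tumor cells. CA12 spans bases 63613577 to 63674045 of chromosome 15, and its counts were 5761 and 5441, or 250 and 303 CPM, and a level of 276 ± 37.1 CPM (SD, n = 2). CA9 spans bases 35673925 to 35681156 of chromosome 9, and its counts were 138 and 38, or 5.99 and 2.11 CPM. Per kb, CA12 exceeded CA9 by 9.53 times in replicate 1 and 32.7 times in replicate 2, so the direction was shared and the size rested on the library. Of the exons of CA9, 571 bases or 35.7% are covered by ARHGEF39 on the opposite strand, listed in the files as C9orf100 with 286 and 211 counts, and how reads in the overlap were assigned rests on the same setting.

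CA12 also stood out within its family. Of 13 other carbonic anhydrase genes, 4 passed the same minimum, against 52.8% of all symbols. They were led by CA11 with 21.3 and 12.1 CPM, CA2 with 8.29 and 4.11 CPM and CA5B with 6.08 and 5.95 CPM. CA1, CA5A, CA7, CA8 and CA14 were at 0 in both libraries. Summed per kb over the family, CA12 made up 63.9% in replicate 1 and 79.8% in replicate 2.

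BNIP3, which encodes a mitochondrial receptor for mitophagy, spans bases 133781188 to 133795471 of chromosome 10, and its counts were 1355 and 757, or 58.8 and 42.1 CPM. Replicate 1 was the higher one. Its paralog BNIP3L, another mitophagy receptor gene induced by the factors, had 125 and 117 CPM and was 2.07 and 2.72 times as high per kb. This ratio depends on the gene model, since with canonical lengths it was 0.949 and 1.25 and its direction differed between the libraries. The annotation holds 44 pseudogenes of BNIP3, none of which is a symbol in the files, and reads that match several copies may not have been counted, so the level of BNIP3 is uncertain.

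ADM, which encodes the secreted vasodilator peptide adrenomedullin, spans bases 10326620 to 10328944 of chromosome 11, and its counts were 835 and 515, or 36.2 and 28.6 CPM. Its level was 32.4 ± 5.37 CPM (SD, n = 2). The receptor for this ligand is formed by CALCRL together with RAMP2 or RAMP3, and these genes were close to the limit of detection. CALCRL had 8 counts in each library, RAMP2 had 1 and 0, and RAMP3 had 4 in each. RAMP1, whose product makes CALCRL a receptor for another peptide, had 857 and 395 counts.

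Set against each other, the regulators as a group stood above the targets with merged exons, but for the medians the direction itself depended on the gene length used. With merged exons, the median level was 23.8 CPM per kb over the regulators and 15.1 over the targets in replicate 1, and 22.7 and 11.4 in replicate 2. On the log2 scale the targets lay lower by 0.83 ± 0.241 (SD, n = 2), with values of -0.66 in replicate 1 and -1.002 in replicate 2. The summed level of the targets was 0.225 and 0.190 times that of the regulators. That ratio is ruled by HIF1A, which gave 198 of 309 CPM per kb of the regulator sum in replicate 1 and 228 of 354 in replicate 2. With the length of the canonical transcript, a choice made after the data were seen, the difference of medians differed in sign between the libraries. The median was then 27.8 CPM per kb over the regulators and 31.2 over the targets in replicate 1, against 26.7 and 23.2 in replicate 2, so that the targets lay higher by 0.17 log2 units in the first and lower in the second, with a mean of -0.0169, while the ratio of sums was 0.236. The groups overlapped widely, since CA12 exceeded 4 of the 6 regulators in both libraries and EGLN3 lay at the level of the lowest target. No test was made, because genes are not replicates and both libraries are of 1 condition.

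In the order of mean levels per kb of merged exons, HIF1A at 213 ± 21.4, EPAS1 at 60.3 ± 10.1, CA12 at 39.5 ± 5.31 and VHL at 30.3 ± 3.52 CPM per kb (SD, n = 2 each) did not overlap with their neighbours. VHL was also above EGLN1 in every pairing of libraries. EGLN1 at 16.3 ± 2.005, ADM at 14.0 ± 2.31, BNIP3 at 12.5 ± 2.92 and ARNT at 9.18 ± 2.06 CPM per kb (SD, n = 2 each) overlapped, each with the next. At the lower end, CA9 at 2.53 ± 1.71 and EGLN3 at 2.34 ± 0.214 CPM per kb (SD, n = 2 each) changed places between the libraries. This held with merged exons only, since EGLN3 was above CA9 in both libraries with the longest transcript, at 6.44 and 5.66 against 3.87 and 1.37 CPM per kb, and with the canonical transcript, at 6.78 and 5.96 CPM per kb. With merged exons, CA9 and EGLN3 lay above 27.4% and 25.8% of expressed genes, whereas ADM and BNIP3 lay above 72.0% and 69.1%.

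**Figure D2:**
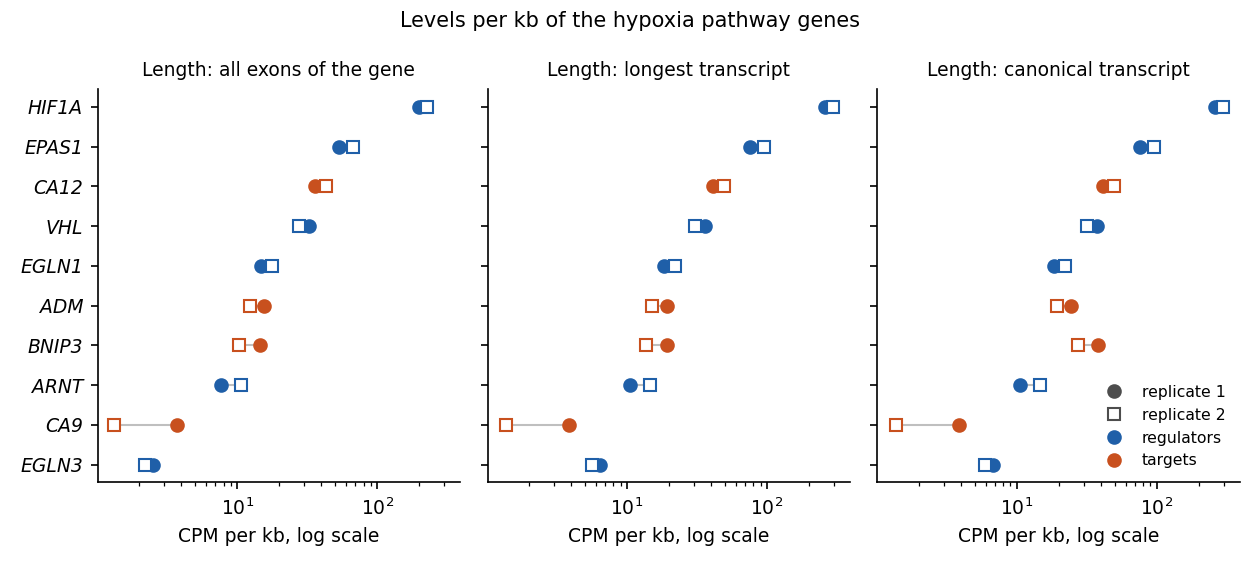
CPM per kb, on a log axis, of the 10 genes with 3 ways of taking the length, the merged exons of the gene (left), the longest transcript (middle) and the canonical transcript (right). Circles are replicate 1 and open squares replicate 2, with regulators in blue and targets in orange. HIF1A, EPAS1 and CA12 keep the first 3 places in all panels, while BNIP3 moves from 14.5 and 10.4 CPM per kb on the left to 38.1 and 27.3 on the right.

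The libraries differed at most of these genes by more than counting error. By edgeR's exact binomial test, with adjustment over all 13744 genes with at least 10 counts over both libraries, 9 of the 10 genes passed at an adjusted p below 0.05, against 57.7% of all genes tested. Of the 12340 genes with a mean count of at least 20, as all 10 genes had, 7782 passed. The test compares these libraries and not conditions, and at such depths small differences pass. HIF1A, EPAS1, ARNT, EGLN1 and CA12 were higher in replicate 2, by 0.20 to 0.46 on the log2 scale. VHL, CA9, BNIP3 and ADM were higher in replicate 1, with log2 differences of replicate 2 minus replicate 1 from -1.49 to -0.24. Of all genes tested, 30.1% were called higher in replicate 2 and 27.6% in replicate 1. EGLN3 did not pass (adjusted p = 0.138 in the exact test of edgeR), with a ratio of replicate 2 to replicate 1 of 0.878 and a 95% Clopper-Pearson interval of 0.754 to 1.02.

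CA9 had the largest difference of the 10 genes. It was 2.83 times as high in replicate 1, the log2 difference of replicate 2 minus replicate 1 being -1.49 with an adjusted p = 4.18e-09 in the exact test of edgeR. The 95% interval of the ratio of replicate 2 to replicate 1 ran from 0.240 to 0.508, which covers counting error only. Of the expressed genes, 4.75% differed by more than 1 log2 unit in either direction. Its neighbour C9orf100 had 12.4 and 11.7 CPM and did not pass the same exact test in edgeR (adjusted p = 0.648). The summed CPM of the leukocyte markers was also higher in replicate 1. Of these, CD14 and CD68 passed the exact test of edgeR and PTPRC did not (adjusted p = 0.527). Among the epithelial and mesenchymal markers that passed it, VIM, KRT8 and KRT18 were likewise higher in replicate 1, and ERBB2 was higher in replicate 2. The log2 differences of replicate 2 minus replicate 1 were -1.02 for CD14, -0.62 for CD68 and -0.27 for PTPRC. They were -0.24 for VIM, -0.47 for KRT8, -0.54 for KRT18 and 0.13 for ERBB2. The part of other cells in the value of CA9 was not tested.

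Short genes were higher in replicate 1 and long genes in replicate 2, and the exonic lengths of the 10 genes run from 1598 bp for CA9 to 7363 bp for EGLN3. The median log2 difference of replicate 2 minus replicate 1 was -0.28 over genes of up to 3505.5 bp of exons and 0.35 over genes of 8321 bp or more. After the trend expected for its length was taken out, CA9 still differed by -1.11 on the log2 scale, with an adjusted p = 2.65e-05 in the exact binomial test. BNIP3 differed by -0.40 beyond its length and ARNT by 0.35. ADM, at -0.34 before, came to -0.06 and no longer passed the exact test (adjusted p = 0.593), while EGLN3 came to -0.36 and passed (adjusted p = 0.00273). With the trend taken out, 9 of the 10 genes again passed, against 52.5% of 12996 genes. Of the 11834 genes with a known length and a mean count of at least 20, 6707 passed. HIF1A, EPAS1, ARNT, EGLN1 and CA12 passed above the trend, as did 25.6% of all genes, and VHL, EGLN3, CA9 and BNIP3 passed below it, as did 26.9%. Of the cell type markers, ERBB2 came to -0.19 (adjusted p = 0.000126 in the exact binomial test). PTPRC came to -0.73 and passed the same test (adjusted p = 0.0473). Below the trend were all markers that passed, 4 of 7 epithelial and mesenchymal ones tested and 3 of 3 leukocyte ones.

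**Figure D3:**
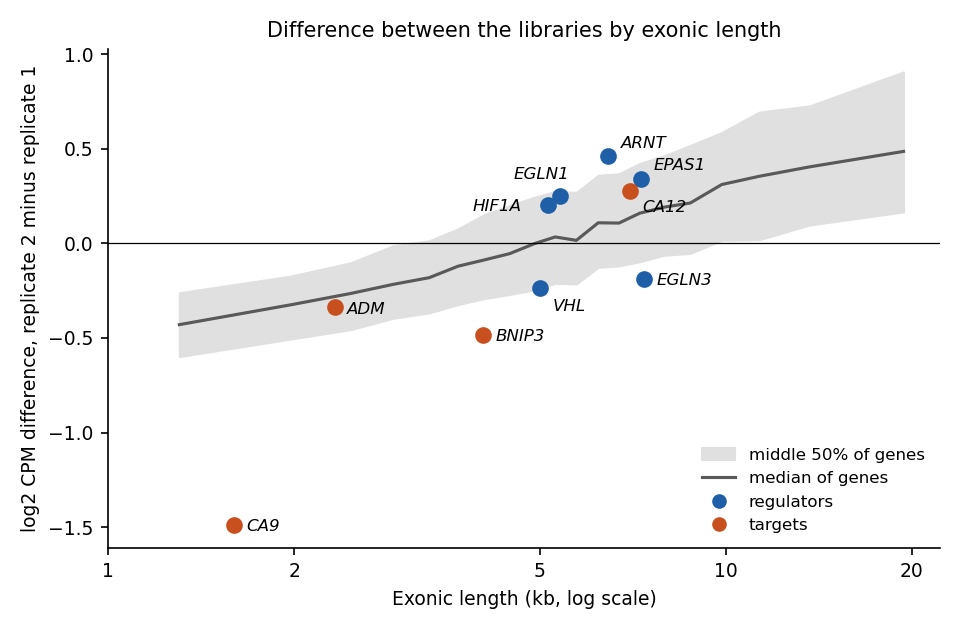
Difference of log2 CPM, replicate 2 minus replicate 1, against exonic length in kb on a log axis. The grey line is the median and the grey band the middle 50% of genes in bins of equal size, and points are the regulators (blue) and targets (orange). CA9 lies far below the band at -1.49, and ADM lies near the line at -0.34.

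The partners of the 10 genes in oxygen sensing were mostly expressed too. Of 12 such genes, 10 passed the minimum mean count, as did 52.8% of all symbols. The median over all 12, with HIF3A and EGLN2 below the minimum included, was 5.74 CPM per kb. Over all genes past that minimum it was 6.39, so the sets are unlike. CITED2, a target of the factors that competes with them for their coactivators, was the highest with 168 and 130 CPM, followed per kb by TCEB2, which encodes elongin B of the VHL complex, with 149 and 96.6 CPM, and by the ligase subunit RBX1 with 57.8 and 37.6 CPM. Of the 10 genes tested between the libraries, 9 passed the exact test of edgeR, against 57.7% of all genes, 5 higher in replicate 1 and 4 in replicate 2, against 27.6% and 30.1%. With the length trend taken out, all 10 passed, against 52.5% of all genes. Of these, 7 were higher in replicate 1 and 3 in replicate 2, against 26.9% and 25.6%, with a median log2 difference of -0.27. EP300 and CREBBP, which encode the coactivators and were chosen after their values were seen, had 36.0 and 52.5 CPM in replicate 1 and 102 and 118 CPM in replicate 2.

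Of 33 other HIF target genes, 31 passed the minimum mean count, as did 52.8% of all symbols. With merged exons the median of the list was 16.7 CPM per kb, close to EGLN1 and above BNIP3 and ADM. With canonical lengths BNIP3 stood at 38.1 and 27.3 and ADM at 24.3 and 19.2 CPM per kb. The median of the list was not recomputed with those lengths, so this order is given for merged exons only. The glycolytic genes ENO1 with 3443 and 2891 CPM, ALDOA with 1618 and 1206 CPM and LDHA with 1697 and 1402 CPM led the list. All 3 serve glycolysis at any oxygen level. EPO, the classical target in kidney, had 0 and 2 counts and TF, which encodes transferrin, had 1 and 0. Between the libraries, 20 of 31 genes passed the exact test of edgeR, 9 higher in replicate 1 and 11 in replicate 2, a share near the 57.7% of all genes (27.6% and 30.1% by direction), with a median log2 difference of -0.09 against -0.01 over all genes tested. With the length trend taken out, 24 passed, against 52.5% of all genes, 17 higher in replicate 1 and 7 in replicate 2, against 26.9% and 25.6%, with a median log2 difference of -0.21.

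**Figure D4:**
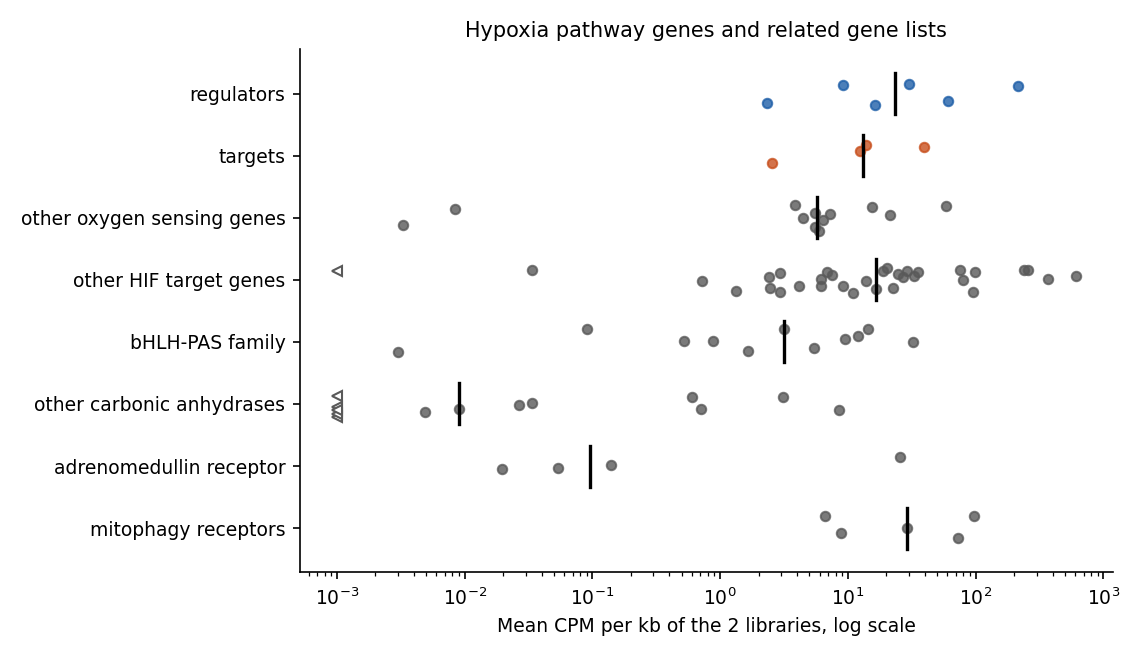
Mean CPM per kb of the 2 libraries, on a log axis, for the regulators (blue), the targets (orange) and related gene lists (grey). Each point is a gene, black bars are medians, and open triangles at the left edge mark genes at 0 or too low for the axis. The other HIF target genes reach from TF at the edge to ENO1 at 607 CPM per kb, and most other carbonic anhydrases lie near 0.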

How the data were processed

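Bulk RNA-seq of 2 libraries of doxorubicin-resistant SUM159 cells was examined. Each library's file, as the authors deposited it, holds unnormalised read counts by gene symbol. According to the methods and the submitters' processing notes, reads were checked with FastQC, mapped to hg19 with HISAT2 and counted in genes with HTSeq, and deepTools is also listed. Libraries were made with a directional kit, per the labels. The tools' versions, the annotation and the strand setting of the counting are not given in the sources used here. CPM were computed from the total of all counts, at which 1 count is 0.0434 CPM in replicate 1 and 0.0556 CPM in replicate 2. Coordinates and lengths come from GENCODE on GRCh37, the assembly that hg19 also names, matched for 21149 symbols (90.5%), 1836 of them through older symbols in RefSeq. Promoter sequences are those of RefSeq on GRCh38.p14.

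The libraries were compared with the exact binomial test of edgeR (binomTest, which uses a chi-square approximation for genes with very many counts) and Benjamini-Hochberg adjustment over genes with at least 10 counts in all. The length trend is a loess fit of the log2 ratio on log2 exonic length, and p-values beyond it come from an exact binomial test for each gene. Both were tested on simulated counts. The 10 genes and all lists were chosen with earlier results of these data known. Named in the text are the 10 genes, the 3 highest and 2 lowest of each list per kb, paralogs of the 10 genes, cell type markers, and EP300 and CREBBP, chosen after their values were seen; 1 marker gene is not reported here. Other scalings, filters, lengths and each library left out were tried. R 4.3.3 with edgeR 4.0.16 and DESeq2 1.42.0 (size factors only), and Python 3.11.15 with pandas 2.3.3, numpy 2.4.6, matplotlib 3.10.9 and scipy 1.17.1 were used.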

Additional observations from a re-analysis of the deposited data

How the results depend on the processing

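The number of the 10 genes with a mean count of at least 20 was also 10 with a minimum of 10 and with either library alone, and 9 with a minimum of 100. The number that differed between the libraries was 9 with TMM library sizes, with DESeq2 size factors, without a filter, with a mean count of at least 20 and with the length trend taken out. Of 50 log2 differences recomputed, none changed sign, ADM lost its call and EGLN3 gained one, both with the length trend taken out. The log2 difference of target and regulator medians moved from -0.83 to -1.54 without length scaling and to -0.0169 with canonical lengths, at which replicate 1 gave 0.17 and replicate 2 gave -0.20, and the ratio of their sums moved from 0.207 to 0.236 with canonical lengths, an alternative chosen after seeing the data. These moves came from leaving out the length or from the choice of transcripts within 1 annotation. With 1 library left out, the difference of medians ranged from -1.002 to -0.66 and the ratio of sums from 0.190 to 0.225. The level of CA9 rests on the library taken, with 2.11 CPM without replicate 1 and 5.99 CPM without replicate 2. All 20 levels under other scalings lay within 1 SD of the values given. The scalings shifted the log2 ratio of the libraries by only -0.0066 with TMM and 0.0077 with DESeq2. The levels could therefore hardly have left that range. No paired analysis was possible because there is a single group. Without naïve libraries and with 2 replicates, these data allow no statement on change upon resistance.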

Other observations

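Other genes of the bHLH-PAS family, whose products share the dimerization domain of the alpha subunits and in part compete for ARNT, were mostly expressed. Of 11 such genes, 10 passed the minimum mean count of 20, as did 52.8% of all symbols. The median over all 11, with SIM1 below the minimum included, was 3.17 CPM per kb. Over all genes past that minimum it was 6.39, so the sets are unlike. AHR, which encodes the aryl hydrocarbon receptor, had 249 and 273 CPM, and its mean level per kb was 32.4 CPM. In replicate 2 AHR lay between CA12 and VHL, at 34.0 CPM per kb. In replicate 1 AHR lay below VHL, at 30.9 against 32.8 CPM per kb. AHR was not placed among the 10 genes with other lengths, so this order is given for merged exons only. Its repressor AHRR had 110 and 163 CPM, and the clock gene ARNTL2 had 81.0 and 87.8 CPM. NPAS3 had 22 and 19 counts and SIM1 had 0 and 1. Between the libraries, 8 of the 10 genes tested passed the exact test of edgeR, against 57.7% of all genes, and 7 of them were higher in replicate 2, against 30.1%. With the length trend taken out, 6 passed, against 52.5% of all genes, and 4 of them were higher in replicate 2, against 25.6%.

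Of the mitophagy receptors beside BNIP3, all 5 had a mean count of at least 20, as did 52.8% of all symbols. FKBP8 had 331 and 220 CPM and PHB2 had 348 and 272 CPM, and both were above BNIP3L and BNIP3 per kb. FUNDC1, with 10.3 and 6.34 CPM, and BCL2L13, with 67.6 and 68.2 CPM, were the lowest of the list per kb.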
